A study of Homo sapiens with 6 samples.

Results

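The genes described here encode 5 laminin chains, LAMA3, LAMB3, LAMA5, LAMB1 and LAMC1, and the transmembrane collagen COL17A1. They were taken by symbol from a table of 27328 loci, so they make up 6 of 27328, and all 6 passed the filter on low values. The libraries were made from purified mRNA of SACC-83 cells, an established human line that derives from an adenoid cystic carcinoma of a salivary gland. The OE group held 3 libraries of SACC-83 cells labelled with circMYBL1 overexpression, a circular RNA named after the gene MYBL1. Their genotype labels count up (circMYBL1, circMYBL2, circMYBL3), so it is uncertain that all 3 carry one construct. The Vec group held 3 libraries of SACC-83 cells with the vector control, labelled WT. Separate cultures are not stated, so a p-value here is set against a spread that may be purely technical. The study was set up to look for targets of circMYBL1.

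Laminins are cross-shaped glycoproteins of the basement membrane, each built from an alpha, a beta and a gamma chain that are joined in the cell before secretion. LAMA3 and LAMB3 are chains of laminin-332, which anchors stratified and glandular epithelia through hemidesmosomes. LAMA5 and LAMC1 pair with LAMB1 in laminin-511 and with LAMB2 in laminin-521, which are found widely under epithelia and vessels. COL17A1 spans the membrane of the basal cell and links the plaque of the hemidesmosome to laminin-332. In adenoid cystic carcinoma, basement membrane material fills the spaces that give the cribriform pattern its name.

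The transcription start regions of LAMA3, LAMB3, LAMB1 and COL17A1 are shown because LAMA3 and LAMB3 share a trimer, LAMB3 and LAMB1 differed in opposite directions between libraries and COL17A1 varied least. Each runs from 250 bases before to 50 bases after a start in RefSeq (GRCh38.p14), 5' to 3' on the gene's own strand, and capitals mark matches to an AP-1 motif (TGANTCA) or a GC box (GGGCGG) on either strand.
LAMA3 (chr18:23872770-23873069, plus strand): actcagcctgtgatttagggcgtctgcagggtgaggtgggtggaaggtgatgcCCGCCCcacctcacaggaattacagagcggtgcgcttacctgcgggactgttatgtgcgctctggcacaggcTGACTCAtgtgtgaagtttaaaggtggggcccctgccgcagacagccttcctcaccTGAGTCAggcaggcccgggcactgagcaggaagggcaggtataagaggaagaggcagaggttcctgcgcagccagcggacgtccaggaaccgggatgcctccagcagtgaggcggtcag
LAMB3, the start farthest downstream of 3 (chr1:209651325-209651624, minus strand): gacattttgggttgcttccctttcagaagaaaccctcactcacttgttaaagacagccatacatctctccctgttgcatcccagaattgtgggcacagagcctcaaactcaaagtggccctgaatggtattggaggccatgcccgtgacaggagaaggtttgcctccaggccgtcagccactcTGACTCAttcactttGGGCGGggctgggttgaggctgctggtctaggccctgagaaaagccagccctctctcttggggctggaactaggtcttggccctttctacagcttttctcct
LAMB1 (chr7:108003112-108003411, minus strand): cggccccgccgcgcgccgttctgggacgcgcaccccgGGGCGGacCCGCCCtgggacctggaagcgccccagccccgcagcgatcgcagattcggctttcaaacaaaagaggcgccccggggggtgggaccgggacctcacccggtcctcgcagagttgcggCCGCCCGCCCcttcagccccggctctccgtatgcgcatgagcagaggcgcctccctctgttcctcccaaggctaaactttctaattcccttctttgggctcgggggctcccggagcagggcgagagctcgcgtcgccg
COL17A1 (chr10:104085831-104086130, minus strand): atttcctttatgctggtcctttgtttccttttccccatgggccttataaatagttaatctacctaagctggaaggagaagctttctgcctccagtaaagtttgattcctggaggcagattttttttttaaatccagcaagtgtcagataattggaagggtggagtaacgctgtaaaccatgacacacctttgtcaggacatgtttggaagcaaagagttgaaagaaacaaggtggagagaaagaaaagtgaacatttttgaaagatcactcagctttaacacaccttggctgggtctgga

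The LAMA3 window lies inside the gene, 183577 bases downstream of its first annotated start in GENCODE release 29, and 1 of its 15 transcripts begins within 50 bases of the start shown. LAMA3 is known to make a short chain from such an internal start and a long chain from the upstream start, and a level summed over the gene does not tell them apart. The length by which the authors divided is not stated, so the level of LAMA3 beside the other chains depends on it. The AP-1 motif occurred at 125 and 69 bases before the LAMA3 start and at 67 bases before the LAMB3 start shown, and in no window of the other 4 genes. Of 35116 windows of this length in the table, 7.71% held it. A GC box was found in windows of all 5 laminin chain genes, with 5 matches for LAMA5, 4 for LAMB1 and 3 for LAMC1, and in 44.95% of all windows. The COL17A1 window had no match to either and had a GC content of 40.7%, against 71.0% for LAMB1. It held the letters of a TATA box (TATAAA), as did 11.5% of all windows, but near its upstream end and not close to the start shown. A match describes letters only and shows no binding. For LAMB3 the other 2 listed starts had no AP-1 match, and the files do not show which start was used.

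All 6 genes were well expressed, at mean levels over the 6 libraries between 53.2 and 388 FPKM (fragments per length of gene and per size of library, as deposited). FPKM is divided by gene length, so levels of different genes are set side by side here as far as the lengths used by the authors, which are not stated, allow. LAMB3 was the highest of the 6 in 6 of 6 libraries and ranked at 125 among all 27328 loci by mean level. LAMA3 was the lowest of the 6 in 6 of 6 libraries. COL17A1 came next, above LAMA5, in 5 libraries, with the order turned in Vec replicate 2. LAMC1 followed, above LAMB1, in 5 libraries, with the order turned in OE replicate 2. Over the 6 libraries the ranges of neighbours in this order overlapped, except that LAMB3 (215 FPKM or more) lay above COL17A1 (157 FPKM or less).

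As to the chains of laminin-332, LAMA3 (ENSG00000053747, GRCh38 chromosome 18, 23689443 to 23956222, plus strand) supplies the alpha chain. LAMA3 read 47.4, 61.1 and 49.8 FPKM in OE replicates 1, 2 and 3, against 45.1, 64.2 and 51.4 FPKM in Vec replicates 1, 2 and 3. The libraries numbered 2 were the highest of both groups, and the groups overlapped. LAMB3 (ENSG00000196878, chromosome 1, 209614870 to 209652466, minus strand), the beta chain, read 584, 246 and 476 FPKM in OE replicates 1, 2 and 3, against 376, 215 and 431 FPKM in Vec replicates 1, 2 and 3. Here the libraries numbered 2 were the lowest of both groups, each OE library lay above the Vec library of its number, and the groups overlapped.

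Of the chains of laminin-511, LAMA5 (ENSG00000130702, chromosome 20, 62307955 to 62367312, minus strand) supplies the alpha chain. LAMA5 read 76.2, 142 and 101 FPKM in OE replicates 1, 2 and 3, against 72.6, 161 and 120 FPKM in Vec replicates 1, 2 and 3. It stood lowest in number 1 and highest in number 2 of both groups, and the groups overlapped. LAMB1 (ENSG00000091136, chromosome 7, 107923799 to 108003255, minus strand), the beta chain, read 54.7, 104 and 61.6 FPKM in the OE libraries, against 58.3, 109 and 67.2 FPKM in the Vec libraries. LAMC1 (ENSG00000135862, chromosome 1, 183023460 to 183145592, plus strand), the gamma chain, read 59.1, 103 and 73.1 FPKM in the OE libraries, against 71.6, 109.9 and 82.1 FPKM in the Vec libraries. For LAMB1 and LAMC1 every OE library lay below the Vec library of its number, number 2 stood highest in both groups, and the groups overlapped.

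COL17A1 (ENSG00000065618, chromosome 10, 104031286 to 104085957, minus strand) varied least, with a highest value 1.31 times its lowest, against 2.72 times for LAMB3. It read 143, 157 and 135 FPKM in OE replicates 1, 2 and 3, against 119, 141.3 and 140.9 FPKM in Vec replicates 1, 2 and 3. The OE library was above the Vec library in numbers 1 and 2 and below it in number 3, and the groups overlapped. Genes on the opposite strand share exon sequence with LAMA5 (ADRM1, 244 bases) and LAMB1 (DLD, 70 bases), both expressed, and use of strand in counting is not stated. These are short stretches beside exon lengths of 14291 bases for LAMA5 and 8140 bases for LAMB1.

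**Figure D1:**
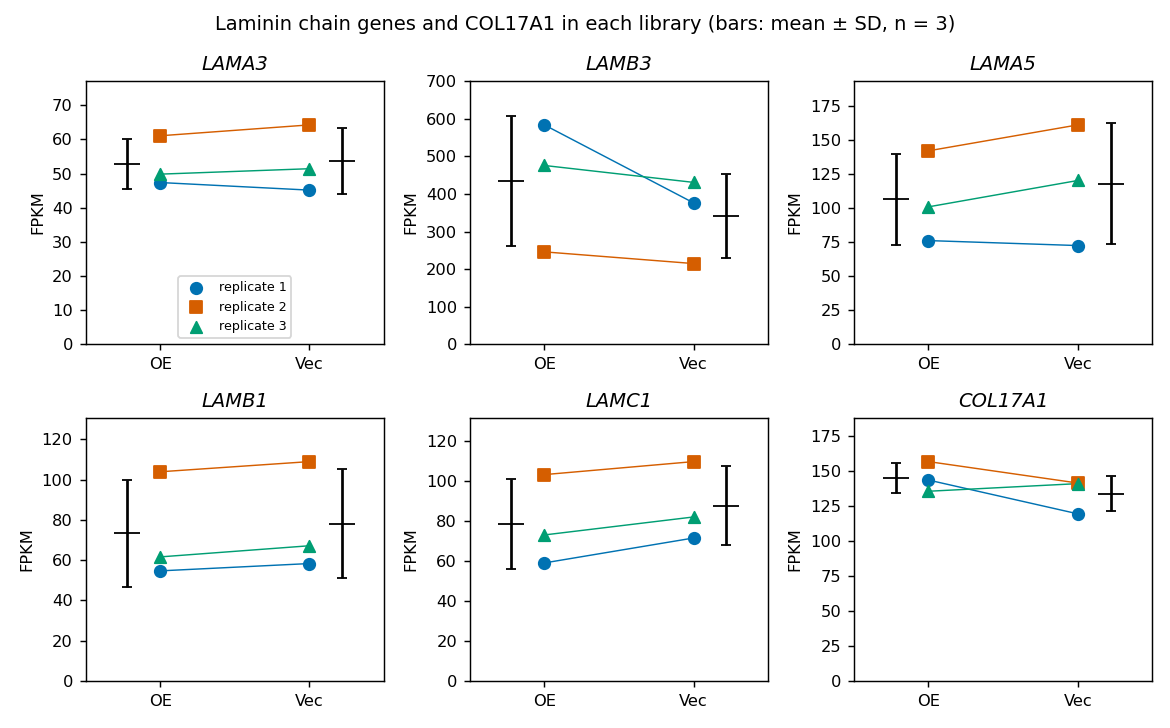
Level of each gene in FPKM (y axis, from 0) in the OE and Vec libraries (x axis); symbols and lines mark same-numbered libraries and black bars give mean ± SD (n = 3 per group). The libraries numbered 2 are the lowest of both groups for LAMB3 (246 FPKM in OE, 215 FPKM in Vec) and the highest for LAMA3, LAMA5, LAMB1 and LAMC1.

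Overexpression of the circular RNA was not accompanied by a called change in any of the 6 genes. MYBL1, the host gene, read 359, 44.0 and 2025 FPKM in the OE libraries, against 9.04, 7.15 and 10.3 FPKM in the Vec libraries, so each OE library was higher, as labelled. It was called by limma with a replicate block (adjusted p = 0.0226) and not without it (adjusted p = 1.0), and the level of a gene does not tell circular from linear RNA. LAMB3 averaged 435 ± 173 FPKM in OE cells and 341 ± 112 FPKM in Vec cells (SD, n = 3 each). LAMC1 averaged 78.5 ± 22.6 FPKM in OE cells and 87.9 ± 19.8 FPKM in Vec cells. LAMA3 averaged 52.7 ± 7.30 FPKM in OE cells and 53.6 ± 9.74 FPKM in Vec cells. These differences were smaller than the SD of either group, as was that of LAMA5, with 107 ± 33.4 FPKM in OE cells and 118 ± 44.4 FPKM in Vec cells. LAMB1 averaged 73.4 ± 26.7 FPKM in OE cells and 78.2 ± 27.1 FPKM in Vec cells, and COL17A1 145 ± 10.7 FPKM in OE cells and 134 ± 12.6 FPKM in Vec cells.

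On the scale of log2(FPKM + 1), the fold change of OE over Vec was 0.32 for LAMB3 (SE 0.39, 95% interval -0.59 to 1.24) and -0.02 for LAMA3 (SE 0.18, interval -0.44 to 0.41). For the laminin-511 chains it was -0.12 for LAMA5 (SE 0.34, interval -0.93 to 0.69), -0.09 for LAMB1 (SE 0.32, interval -0.84 to 0.66) and -0.18 for LAMC1 (SE 0.25, interval -0.77 to 0.42). COL17A1 gave 0.12 (SE 0.14, interval -0.21 to 0.45). These intervals leave room for changes of either sign in all 6 genes. By limma with group as the only term, 0 of the 6 were called at an adjusted p under 0.05 (adjusted p = 1.0 for each), and 0% of all 12064 tested genes were. None of the 6 had an unadjusted p under 0.05 in that fit, against 65 of the 12064 genes, or 0.539%. None had groups that did not overlap, against 3.34% of tested genes (2.5% higher and 0.845% lower in OE).

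Same-numbered libraries varied together, and adding the replicate number as a block narrowed the intervals without a call. The ratios of OE to Vec for LAMB3 were 1.55, 1.15 and 1.10 in numbers 1, 2 and 3. With the block the interval of LAMB3 was 0.08 to 0.57 (adjusted p = 0.561, unadjusted p = 0.0143, limma). In that fit 0.0995% of tested genes were called (0.0912% higher and 0.00829% lower in OE) and 7.19% had an unadjusted p under 0.05, among them LAMB3 alone of the 6. LAMB3 was higher in 3 of 3 pairs, as were 16.5% of tested genes. LAMB1 and LAMC1 were lower in 3 of 3 pairs, as were 11.9%. For LAMC1 the ratios were 0.825, 0.941 and 0.890 and the block interval -0.38 to 0.02, and for LAMB1 they were 0.938, 0.954 and 0.918 with an interval of -0.29 to 0.10. The LAMB3 fold change rested in part on OE replicate 1 and Vec replicate 2: in the group-only fit it was 0.07 without the first and 0.02 without the second, and 0.69 without OE replicate 2.

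**Figure D2:**
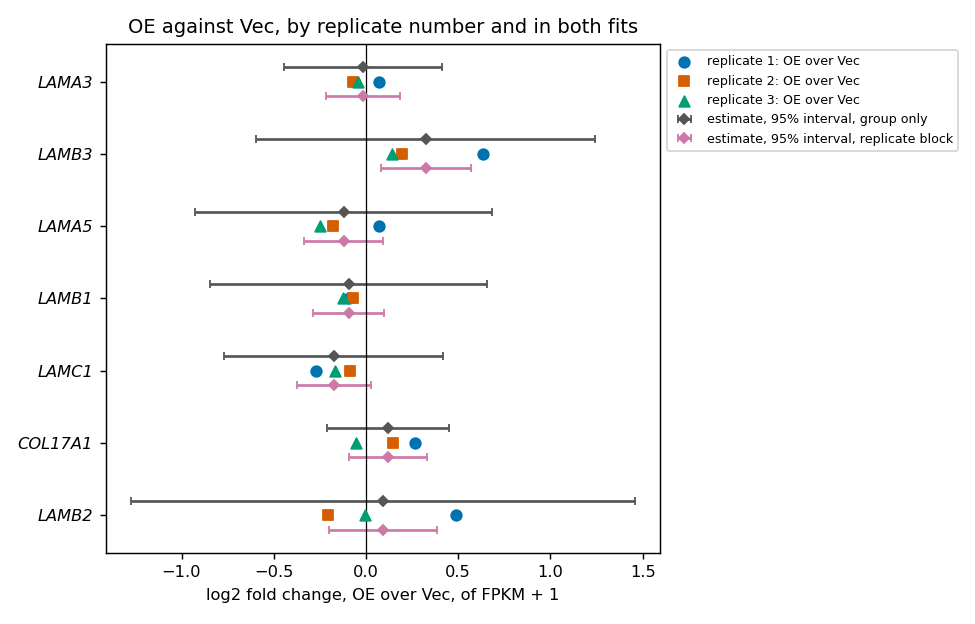
Log2 fold change of OE over Vec on FPKM + 1 (x axis) for the 6 genes and LAMB2 (y axis); colored symbols are the 3 same-numbered pairs, and diamonds with bars are the estimates with 95% intervals from the group-only fit and from the fit with replicate number as a block. All group-only intervals cross 0, and in the block fit that of LAMB3 (0.08 to 0.57) lies above it without passing the adjustment over all genes.

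The balance between chains can be read within a library, where library scaling cancels. The ratio of LAMB3 to LAMB1 was 10.7, 2.37 and 7.72 in OE replicates 1, 2 and 3, against 6.45, 1.97 and 6.41 in Vec replicates 1, 2 and 3. It was higher in OE in each pair, while the groups overlapped. On the log2 scale with 1 added to each level, the ratio averaged 2.52 ± 1.14 in OE cells and 2.10 ± 0.98 in Vec cells (SD, n = 3 each), a difference of 0.42 (2-sided exact permutation test, p = 0.5, where 3 against 3 cannot give less than 0.1). Its sign turned without OE replicate 1 (-0.02) or without Vec replicate 2 (-0.15).

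The ratio of LAMA3 to LAMA5 was 0.621, 0.429 and 0.493 in the OE libraries, against 0.622, 0.398 and 0.427 in the Vec libraries. The log2 difference was 0.10 (exact permutation test, p = 0.6), and its sign also turned without OE replicate 1 (-0.04) or Vec replicate 2 (-0.02). The ratio of LAMC1 to LAMB1, 2 chains of the same trimers, stayed near 1 in every library, at 0.994 to 1.19 in OE cells and 1.01 to 1.23 in Vec cells. The log2 difference was -0.08 (exact permutation test, p = 0.5). Adjusted over the 3 ratios, each of these p was 0.6. LAMB3 exceeded LAMA3, its partner in laminin-332, by 4.03 to 12.3 times in OE cells and by 3.34 to 8.38 times in Vec cells.

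**Figure D3:**
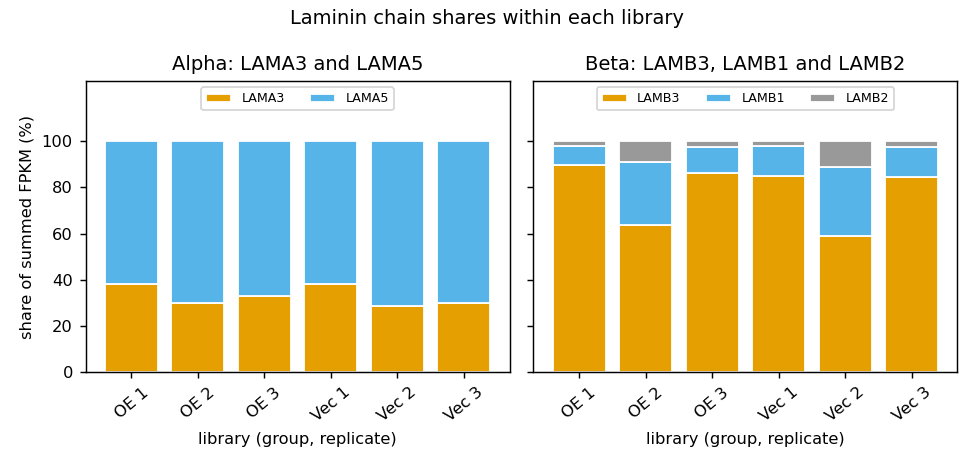
Share of the summed FPKM (y axis, percent) held by each alpha and beta chain gene in each library (x axis, OE then Vec). LAMB3 held 63.9% of the beta chain sum in OE replicate 2 and 58.9% in Vec replicate 2, against 84.3% to 89.5% in the other 4 libraries.

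Expressed as shares, LAMB3 held 89.5%, 63.9% and 86.4% of the summed FPKM of LAMB1, LAMB2 and LAMB3 in OE replicates 1, 2 and 3, against 84.7%, 58.9% and 84.3% in Vec replicates 1, 2 and 3. The share of LAMA3 in the sum of LAMA3 and LAMA5 ranged over 30.0% to 38.3% in OE cells and 28.5% to 38.3% in Vec cells. In the libraries numbered 2 LAMB3 thus took a smaller share than in the other 4, and LAMA3 had the lowest share of its group.

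Most of these genes differed by replicate number. What a number stands for is not stated in the labels. By limma with group as the other term, an F test over the 3 numbers called 5 of the 6 genes, all but COL17A1, where 46.5% of all tested genes were called. LAMB3 was lower in number 2 than in number 1 (log2 difference -1.03, SE 0.13, adjusted p = 0.000237). LAMA5 (1.02, SE 0.12, adjusted p = 0.00013), LAMB1 (0.90, SE 0.11, adjusted p = 0.000142), LAMC1 (0.70, SE 0.11, adjusted p = 0.000654) and LAMA3 (0.43, SE 0.11, adjusted p = 0.00899) were higher in number 2 than in number 1. Of all tested genes 29.5% were called higher and 20.7% lower in this difference. Higher calls thus made up 58.8% of all calls, against 38.9% with TMM factors, 47.8% under quantile scaling and 67.3% on TPM. In bulk libraries, fewer cells of a kind and less RNA per cell cannot be told apart.

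Number 2 stood on the same side of number 3 as of number 1. LAMB3 was higher in number 3 than in number 2 (0.98, SE 0.13, limma, adjusted p = 0.000602), where 15.3% of tested genes were called higher. LAMB1 (-0.72, adjusted p = 0.000896), LAMC1 (-0.45, adjusted p = 0.0103) and LAMA5 (-0.45, adjusted p = 0.0142) were lower, as were 20.8% of tested genes, while LAMA3 missed the threshold (-0.30, adjusted p = 0.0555). Between numbers 3 and 1 none of the 6 was called, against 0.448% of tested genes called higher and 0.0995% lower. LAMA5 gave the largest of these differences among the 6 (0.56, interval 0.30 to 0.83, adjusted p = 0.0743). COL17A1 gave 0.18 between numbers 2 and 1 (interval -0.08 to 0.44, adjusted p = 0.208) and -0.11 between numbers 3 and 2 (interval -0.37 to 0.15, adjusted p = 0.502).

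The call of LAMA3 over the numbers was the least firm (F test, limma, adjusted p = 0.0228). It ended with TMM factors (adjusted p = 0.167), after a correction for GC content and length (0.190), without a filter on low values (0.0523), and without OE replicate 2 (0.0978) or Vec replicate 2 (0.238). Its difference of numbers 2 and 1 was no longer called with TMM factors (0.23, adjusted p = 0.0770), after the GC and length correction (0.19, 0.141), without Vec replicate 1 (0.0503) and without Vec replicate 2 (0.0970). Its difference of numbers 3 and 2 passed on TPM (0.0208), under quantile scaling (0.0127), without a group term (0.0444), and without OE replicate 1 (0.0360) or Vec replicate 1 (0.0366). TMM factors moved the median difference of all genes between numbers 2 and 1 to -0.09, against 0.09 on FPKM, and TPM moved it to 0.18. With them LAMB3 gave -1.23, LAMA5 0.81, LAMB1 0.70 and LAMC1 0.50 in this difference, still called, while that of COL17A1 turned sign (-0.02). After the GC and length correction the differences were -1.06 for LAMB3, 0.70 for LAMA5, 0.80 for LAMB1 and 0.51 for LAMC1, all called. The LAMA5 difference of numbers 3 and 2 lost its call without a filter (adjusted p = 0.0639), after the GC and length correction (-0.23, 0.0736), without OE replicate 3 (0.114) and without Vec replicate 2 (0.1001). That of LAMC1 lost it without OE replicate 2 (0.0993) or Vec replicate 3 (0.0607). Under quantile scaling COL17A1 was called over the numbers (0.0183), at 0.42 for numbers 2 and 1, and on TPM this difference was called too (0.28, adjusted p = 0.0447). LAMA5 passed for numbers 3 and 1 on TPM (0.0429), under quantile scaling (0.0401), with a stricter filter (0.0497), and without OE replicate 1 (0.0410), OE replicate 2 (0.00300) or Vec replicate 2 (0.00310).

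LAMB2, which takes the place of LAMB1 in laminin-521, moved on the same side as LAMB1, while LAMA1, LAMA2, LAMA4, LAMB4 and LAMC3 lay under 1 FPKM in every library. LAMB2 read 13.8, 35.1 and 13.3 FPKM in OE replicates 1, 2 and 3, against 9.53, 40.7 and 13.3 FPKM in Vec replicates 1, 2 and 3. It was higher in number 2 than in number 1 (log2 difference 1.64, SE 0.16, limma, adjusted p = 5.28e-05). In OE against Vec it was not called (0.09, SE 0.58, adjusted p = 1.0).

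**Figure D4:**
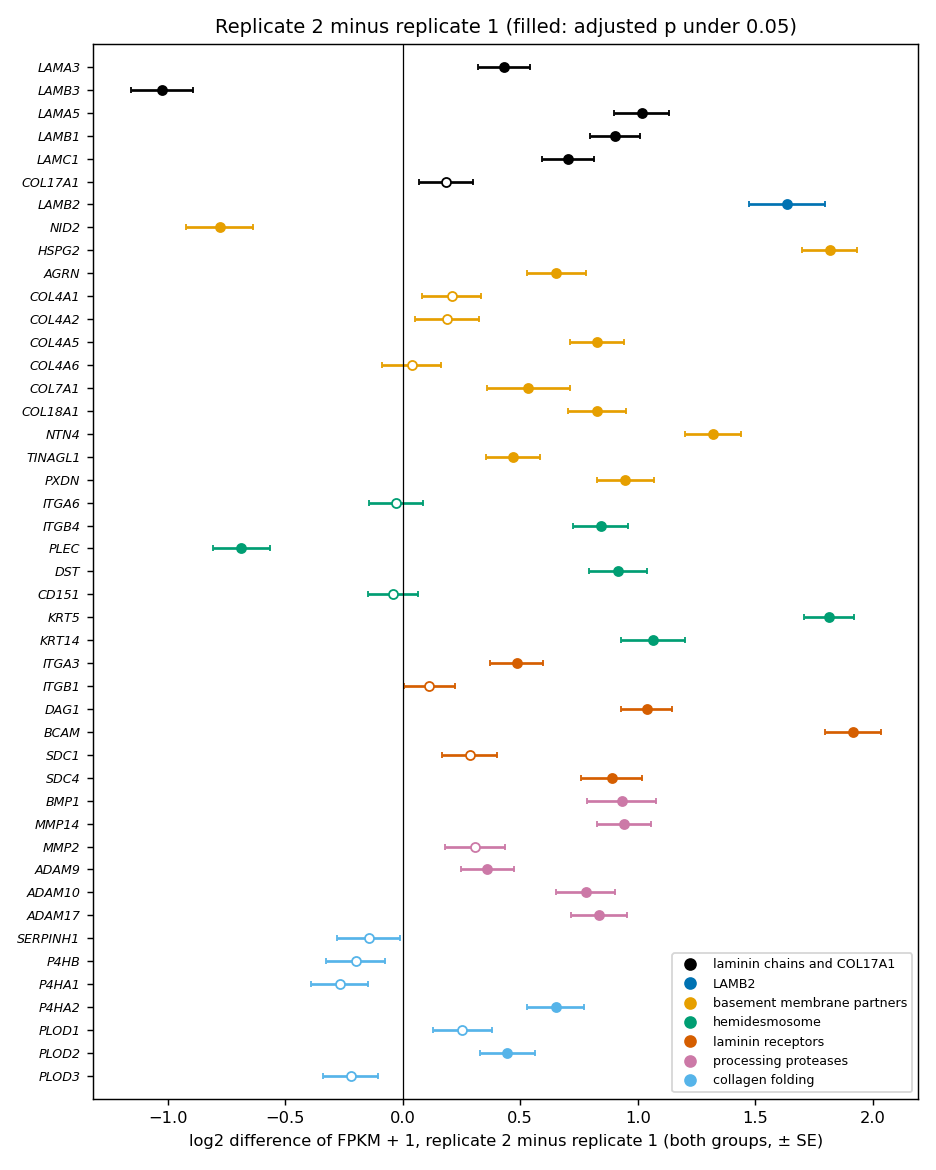
Log2 difference of FPKM + 1 between replicate numbers 2 and 1, over both groups (x axis, bars are SE), for the 6 genes, LAMB2 and the tested genes of the lists (y axis, colored by list); filled symbols have an adjusted p under 0.05. LAMB3 (-1.03), NID2 and PLEC stand on the lower side, and most other called genes on the higher side.

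Partners of these genes were read from lists of the basement membrane, the hemidesmosome, laminin receptors, processing proteases and collagen folding. In OE against Vec none of their tested genes was called by limma, with or without the block. COL4A6, a collagen IV chain singled out after its values were seen, had groups that did not overlap, at 17.5 to 19.9 FPKM in OE cells and 15.8 to 17.4 FPKM in Vec cells (adjusted p = 1.0). Its groups nearly touched, at 17.47 FPKM in OE replicate 3 and 17.43 FPKM in Vec replicate 3, and 3.34% of tested genes had groups that did not overlap. Median log2 fold changes were 0.04 over 12 tested of 16 basement membrane partners, -0.03 over 7 hemidesmosome genes, 0.03 over 6 tested of 7 receptors, -0.11 over 6 tested of 8 proteases and 0.09 over 7 collagen folding genes, beside 0.03 over all tested genes and -0.06 over the 6 genes themselves. TINAGL1, a matrix glycoprotein, read 154 ± 27.6 FPKM in OE cells and 139 ± 28.6 FPKM in Vec cells (SD, n = 3 each). The proteoglycan AGRN read 109 ± 24.6 FPKM in OE cells and 103 ± 32.7 FPKM in Vec cells. COL7A1, the collagen of the anchoring fibrils that bind laminin-332, read 109 ± 17.5 FPKM in OE cells and 93.3 ± 29.1 FPKM in Vec cells.

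By replicate number, 8 of the 12 tested basement membrane partners were higher in number 2 than in number 1 and 1 was lower, NID2 (-0.78), one of the nidogens that link laminin to collagen IV. In this difference 29.5% of all tested genes were called higher and 20.7% lower. AGRN gave a log2 difference of 0.65 (limma, adjusted p = 0.00207) and TINAGL1 0.47 (adjusted p = 0.00775), COL7A1 gave 0.53 (adjusted p = 0.0294), whereas COL4A2, a chain of the collagen IV network, was not called (0.19, adjusted p = 0.274). The proteoglycan HSPG2, singled out after its values were seen, gave 1.82 (adjusted p = 6.02e-06). The list median was 0.59, beside 0.09 over all tested genes and 0.57 over the 6 genes.

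Of the hemidesmosome genes, 4 of 7 were higher in number 2 than in number 1 and 1 was lower, the plaque linker PLEC (-0.69). The higher genes were ITGB4, KRT5, KRT14 and DST, and the list median was 0.84. Of all tested genes, 29.5% were higher and 20.7% lower. ITGB4, whose integrin binds laminin-332 and COL17A1, gave 0.84 (limma, adjusted p = 0.000369) while its alpha partner ITGA6 gave -0.03 (adjusted p = 0.858) and the tetraspanin CD151 -0.04 (adjusted p = 0.764). The basal keratin KRT5 gave 1.81 (adjusted p = 4.56e-06). Of the 6 tested receptors 4 were higher and 0 lower, with a median of 0.69. The integrin subunit ITGA3 gave 0.48, the syndecan SDC4 0.89, the dystroglycan gene DAG1 1.04 and BCAM, a receptor of LAMA5, 1.92, and the integrin subunit ITGB1 gave 0.11 (adjusted p = 0.395).

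Of the 6 tested proteases, 5 were higher in number 2 than in number 1 and 0 lower, with a median of 0.81, where 29.5% of all tested genes were higher and 20.7% lower. They included MMP14 (0.94), a membrane protease of the pericellular matrix, BMP1 (0.93), which trims laminin-332, and ADAM9 (0.36), ADAM10 (0.78) and ADAM17 (0.83), which can shed COL17A1 from the cell surface. Of the 7 collagen folding genes 2 were higher and 0 lower, the hydroxylases P4HA2 (0.65) and PLOD2 (0.44), a count near the share of all tested genes, and the list median was -0.15. P4HB, a subunit of prolyl hydroxylase, gave -0.20 (limma, adjusted p = 0.210) and the collagen chaperone SERPINH1 -0.15 (adjusted p = 0.392), while the lysyl hydroxylases PLOD1 and PLOD3 gave 0.25 and -0.22, neither called. With TMM factors 1 of these 7 was higher and 4 were lower, so no direction holds for them. With TMM factors the counts were 7 higher and 1 lower for the basement membrane partners, 4 and 1 for the hemidesmosome, 4 and 0 for the receptors and 4 and 0 for the proteases. Of all 12064 tested genes, 2495 were called higher and 3912 lower with TMM factors.

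Some markers of cell types differed by replicate number too. All 4 tested of 6 myoepithelial or basal markers (TP63, ACTA2, and KRT5 and KRT14, which also stand in the hemidesmosome list) were higher in number 2 than in number 1. The shares over all tested genes were 29.5% called higher and 20.7% called lower. The summed FPKM of that list was 131, 418 and 137 in OE replicates 1, 2 and 3, against 151, 494 and 178 in Vec replicates 1, 2 and 3, with CNN1 and MYH11 under 1 FPKM throughout. Of 5 epithelial markers, 4 of them tested, CDH1 was higher and KRT8 lower in this difference, EPCAM and KRT18 were not called, and the sum ranged over 1555 to 1893 FPKM in OE cells and 1373 to 1676 FPKM in Vec cells. The call of KRT8 was lost on TPM, under quantile scaling, without a filter, a trend or a group term, after the GC and length correction, and without OE replicate 1, OE replicate 2, Vec replicate 1 or Vec replicate 2. Fibroblast markers summed to 3.07 to 8.90 FPKM in OE cells and 4.05 to 11.3 FPKM in Vec cells, nearly all from COL1A1, highest in number 2, with COL1A2 at 0 in every library. Endothelial markers summed to 0.199 to 1.38 FPKM in OE cells and 0.101 to 1.71 FPKM in Vec cells, again highest in number 2, while of 3 leukocyte markers PTPRC and CD3E were at 0 in every library and CD68 read 6.49 to 10.8 FPKM in OE cells and 7.19 to 8.04 FPKM in Vec cells. The part of these markers in the laminin differences was not tested.

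The genes whose log2 levels followed each of the 6 most closely over the 6 libraries were found by Pearson's r among 8257 candidates with a mean of at least 5 FPKM. For LAMB3 they were HMGN1, DIPK2A and HMGA1 (r = 0.993 to 0.997). For LAMA3 they were CLIC3, SERINC2 and SUOX, for LAMB1 REEP3, SYT8 and WEE1, and for LAMC1 WDR47, PHF10 and SETD5 (r = 0.997 or more in each). For LAMA5 they were KCNN4, PLEKHA2 and PIAS3 (r = 0.994 to 0.997), and for COL17A1 LLGL1, GPSM1 and SKIV2L (r = 0.985 to 0.991). The 6 libraries share their 3 numbers, so for the laminin chains, all called over the numbers, these values may largely describe likeness by number. COL17A1 was not called over the numbers (F test, limma, adjusted p = 0.401), so its values are not shown to describe that. An r of 0.99 was exceeded by 106 candidates for LAMA3 and for LAMB1, and by 2 for COL17A1.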

How the data were processed

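Per the labels' protocols, total RNA was taken up in TRIzol and mRNA libraries were built with the NEBNext Ultra kit. The submitters' processing notes name HISAT2 and GRCh38; the counter, annotation and versions were not given in the sources used here. FPKM values were deposited by the authors per library and sum to between 371776 and 408826. No whole-read steps were found, so read depth is unknown. Between libraries, r of the log2 levels lay at 0.915 to 0.990, and no 2 libraries were identical.

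Loci with at least 1 FPKM in at least 3 libraries were kept (12064), and limma 3.58.1 under R 4.3.3 was run on log2(FPKM + 1) with a variance trend, 2-sided, adjusted by Benjamini-Hochberg over all kept loci at 0.05. The terms were group alone, or group with replicate number. Ratios were tested by exact permutation in scipy 1.17.1. The fits were tested on simulated data. With group means taken out, libraries of the same number correlated across genes (0.725 for number 1, 0.881 for number 2, 0.529 for number 3), each above a limit of 0.1. Libraries numbered 1 and 3 also correlated across the groups, at 0.412 for OE 1 with Vec 3 and 0.424 for OE 3 with Vec 1. These values pass the same limit, so the check sets number 2 apart more clearly than it pairs numbers 1 and 3. The numbers were taken to pair libraries on this limited ground, which the labels do not state. The genes and lists were chosen with earlier results of these data known. From each list up to 4 genes of highest mean FPKM were named, with any called in OE against Vec; other names are genes counted in the text. Positions are from GENCODE release 29 and start regions from RefSeq (GRCh38.p14), which held all 6 genes. Alternatives covered pseudocount, filter, scaling, trend, library weights, the block and left-out libraries; a GC and length correction was added after the data were seen.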

Additional observations from a re-analysis of the deposited data

How the results depend on the processing

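In OE against Vec, 0 genes were called by limma under other pseudocounts, filters and scalings and without a trend, and 65 had an unadjusted p under 0.05. The count was 12 with the replicate block, then 14, 148 and 22 when numbers 1, 2 or 3 were left out of that fit. It was 3 in the block fit after GC and length correction, 346 with library weights, whose estimation did not converge, and 0 to 1 when 1 library was left out. None of the 6 genes was called in OE against Vec in any of these settings. The block changed no call for the 6 genes. For the 3 chain ratios the exact sign-flip test over pairs gave p = 0.25 to 0.5, with 0.25 the smallest possible.

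Log2 fold changes of OE over Vec that turned sign were -0.035 for COL17A1 with library weights, and for LAMA3 0.012 in the block fit without number 2 and 0.036 after GC and length correction, with or without the block. Leaving out 1 library gave ranges of -0.13 to 0.12 for LAMA3, -0.43 to 0.14 for LAMA5, -0.37 to 0.17 for LAMB1 and -0.39 to 0.0078 for LAMC1, and without a change of sign 0.04 to 0.17 for COL17A1 and 0.02 to 0.69 for LAMB3. The log2 ratio difference ranged over -0.15 to 1.06 for LAMB3 to LAMB1 and over -0.039 to 0.30 for LAMA3 to LAMA5, and without a change of sign over -0.17 to -0.02 for LAMC1 to LAMB1.

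Over replicate numbers 5605 genes were called, 3389 without a filter and 3663 to 6174 when 1 library was left out, the lowest without Vec replicate 2. Sign turned for the difference of numbers 3 and 1 of LAMB3 under quantile scaling (0.035) and of LAMA3 after GC and length correction (-0.015), and for COL17A1 with TMM factors, at -0.019 for numbers 2 and 1 and 0.043 for numbers 3 and 2. Leaving out 1 library gave -0.28 to 0.18 for LAMB3 and -0.053 to 0.21 for COL17A1 between numbers 3 and 1, and -0.24 to 0.025 for COL17A1 between numbers 3 and 2. Where a result moved, the cause was not tested. FPKM carry no depth, so counting error could not be given.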
